A study of Mus musculus with 8 samples.

Results

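The BCL2 family decides whether a cell keeps its mitochondria intact or dies by apoptosis. The account covers 10 of its genes, chosen by gene symbol: the survival genes Bcl2, Bcl2l1 and Mcl1, the pore-forming effector genes Bax and Bak1, and the BH3-only genes Bcl2l11, Bbc3, Pmaip1, Bid and Bad. They are 10 of the 47729 genes in the count table, and each passed the filter on low counts that left 13462 genes to test. RNA was sequenced from leukaemic bone marrow cells of 8 C57BL/6 mice with a disease like chronic myeloid leukaemia, 1 library per mouse. All 8 mice had received marrow of donors treated with 5-fluorouracil, after irradiation with 900 cGy, and in both groups that marrow had been transduced with a BCR-ABL1 retrovirus carrying RFP. In 4 mice the cells also carried a lentiviral scrambled shRNA with Venus, and in 4 an shRNA against Fubp1 with Venus. The FUBP1 protein binds single-stranded DNA and RNA and is best known for its effect on Myc. Cells positive for RFP and Venus, negative for lineage markers and for DAPI, were sorted, so the data describe transduced cells under a viral BCR-ABL1 and not the host's own marrow. Ages are not stated in the labels used here.

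In the mitochondrial pathway of apoptosis, BAX and BAK1 open the outer mitochondrial membrane and release cytochrome c, which starts the caspase cascade. BCL2, BCL-XL (the main product of Bcl2l1) and MCL1 hold BAX and BAK1 in check, and BH3-only proteins such as BIM (Bcl2l11), PUMA (Bbc3), NOXA (Pmaip1), BID and BAD neutralise the survival proteins or activate the effectors. BCR-ABL1 is known to keep leukaemic cells alive in part through STAT5, which drives Bcl2l1 and Mcl1, and by holding BIM and BAD down; BCL-XL is also known as a survival protein of erythroid cells. Much of this control acts on the proteins, which RNA counts do not show.

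Total counts ran from 22465303 to 44761356 per library. The targeted gene Fubp1 measured 284 to 396 CPM (counts per 1000000 counts of the library, with TMM scaling) in the scrambled and 220 to 281 CPM in the knockdown libraries, without overlap; its log2 fold change was -0.39 (SE 0.12), with an adjusted p of 0.0604 by edgeR's quasi-likelihood test. On the first principal component, with 61.1% of the variance, knockdown replicate 3 lay among the scrambled libraries. Of the progenitor genes 5 were tested and 0 called, with fitted changes in both directions. Kit measured 77.0 to 231 CPM in the scrambled and 53.1 to 113 CPM in the knockdown libraries. The log2 fold changes of Kit, Gata2 and Myb were -0.86, -0.41 and -0.33, and those of Cd34 and Flt3 were 2.39 and 2.99. The B cell gene Ms4a1 and the T cell gene Cd3e were at 0 in every library. The whole B cell list summed to 0.225 to 1.09 CPM in the scrambled and 0.539 to 3.87 CPM in the knockdown libraries. Late neutrophil genes summed to 1.42 to 5.84 CPM in the scrambled and 0.539 to 24.3 CPM in the knockdown libraries. Mast cell and basophil genes summed to 1.08 to 13.5 CPM and 1.14 to 60.6 CPM in the same groups. Other genes of the lists for other cell types were present: the T and NK list summed to 1.804 to 8.13 CPM in the scrambled and 2.06 to 86.7 CPM in the knockdown libraries, nearly all of it Nkg7. Stromal and endothelial genes summed to 3.69 to 12.8 CPM and 10.1 to 365 CPM, the highest sum being that of knockdown replicate 1, also the highest library by Bcl2l1 and Pmaip1. Most of these stromal and endothelial sums came from 2 genes. Pecam1 measured 2.92 to 5.90 CPM in the scrambled and 9.33 to 45.3 CPM in the knockdown libraries. Col1a1 stood at 332 CPM in knockdown replicate 1 and reached at most 6.86 CPM in the scrambled libraries. Cdh5, Emcn, Cxcl12 and Lepr did not exceed 0.370 CPM in any library. The part of the genes of these lists in the member levels was not tested. The cells were rich in erythroid transcripts, with a summed level of 5549 to 9183 CPM for 11 erythroid genes. A list of 8 early granulocyte genes summed to 38.0 to 342 CPM in the scrambled libraries and to 91.2 to 3721 CPM in the knockdown libraries. Its 8 genes had fitted changes above 0; edgeR called 1 of them higher, DESeq2 8 and limma-voom 0. Monocyte genes summed to 5.66 to 17.3 CPM in the scrambled and 13.6 to 174 CPM in the knockdown libraries, and edgeR called 0 of 5 tested, with 5 at an unadjusted p under 0.05 and 4 called by DESeq2. Values below are given for replicates 1 to 4 of a group in that order.

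The promoters of the 3 survival genes are shown as a description, for Bcl2l1 at 1 of its starts. These genes varied between mice to very different extents, and any link of that to their promoters was not tested. Each line gives 250 bases directly upstream of a RefSeq RNA start (GRCm38.p6), 5′ to 3′ on the strand of the gene, with matches to the motifs below in capitals.
Bcl2, chr1:106714291-106714540, minus strand: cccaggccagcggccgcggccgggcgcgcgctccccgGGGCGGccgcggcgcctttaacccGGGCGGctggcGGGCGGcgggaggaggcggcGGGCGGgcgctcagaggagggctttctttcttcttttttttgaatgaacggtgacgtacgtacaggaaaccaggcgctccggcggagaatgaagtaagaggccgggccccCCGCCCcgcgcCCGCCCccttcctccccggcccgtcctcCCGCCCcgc
Bcl2l1, chr2:152831729-152831978, minus strand: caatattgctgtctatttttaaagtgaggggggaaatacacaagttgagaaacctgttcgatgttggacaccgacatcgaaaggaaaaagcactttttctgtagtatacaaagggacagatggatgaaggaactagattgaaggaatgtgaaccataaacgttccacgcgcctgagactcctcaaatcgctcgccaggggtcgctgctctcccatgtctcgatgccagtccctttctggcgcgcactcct
Mcl1, chr3:95658471-95658720, plus strand: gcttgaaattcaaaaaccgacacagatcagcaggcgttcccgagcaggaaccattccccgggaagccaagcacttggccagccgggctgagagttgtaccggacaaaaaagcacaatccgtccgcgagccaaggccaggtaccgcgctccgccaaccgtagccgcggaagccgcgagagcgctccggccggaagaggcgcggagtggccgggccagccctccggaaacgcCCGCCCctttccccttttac
The letters were searched for on both strands. A GC box, bound by SP factors, was taken as GGGCGG. The core of a site for STAT factors such as STAT5 was taken as TTCNNNGAA. A site for the erythroid factor family of GATA proteins was taken as AGATAA. The E-box bound by MYC with its partner MAX was taken as CACGTG. The Bcl2 window was 74.8% G and C and held 7 GC boxes, the nearest beginning 9 bases before the start. The Mcl1 window held 1 GC box, beginning 20 bases before the start, at 64.4% G and C. The Bcl2l1 window, at 47.6%, held none of the 4 motifs; the median over 32851 such windows of all genes was 52.4%. RefSeq windows were used for 9 members, all but Pmaip1; there were 15 of them and 10 held a GC box, against 32.7% of windows of all genes. The STAT letters were in 0 of the 15, against 7.02% of windows of all genes, the GATA letters in 1 (another start of Bcl2l1), against 9.99%, and the E-box in 2 (Bax and Bbc3), against 6.02%. A match is a run of letters and no sign of binding, and the RNA starts used in these cells were not measured.

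Of the 10 members 1 was called higher in the knockdown and 0 lower, at an adjusted p under 0.05 by edgeR's quasi-likelihood test over all tested genes. The called gene was Pmaip1. Over all tested genes the share called was 15.3%, with 8.02% higher and 7.29% lower. The median log2 fold change (knockdown minus scrambled) was 0.12 over the 10 members and 0.00 over all tested genes, and 3 members had an unadjusted p under 0.05, against 33.5% of all tested genes. In 0 of the 10 did the CPM of the groups separate without overlap, against 20.7% of all tested genes. With CPM of the total count in place of TMM scaling 2 of the 10 separated, Bcl2l1 and Mcl1, against 19.9% of all tested genes. Exact two-sided permutation over the 70 ways to divide the libraries 4 and 4 gave p from 0.0571 for Pmaip1 to 0.571 for Bid, and 0.193 to 0.727 after adjustment over all tested genes. DESeq2 run on the same counts called 3 members higher, Bcl2, Bcl2l1 and Pmaip1, against 23.1% of its tested genes called and 13.1% called higher. The authors' deposited table also gave these 3 an adjusted p under 0.05, against 21.3% of its genes, and 0 of them passed the authors' further limit of 1 log2 unit. The deposited log2 fold changes of these 3 were smaller than those of DESeq2 run here, at 0.996 against 1.95 for Bcl2. The reason was not tested.

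The count of members called changed with the model. It was 0 by limma-voom (13.1% of all tested genes called), 0 with no filter on low counts (6.08%), 0 with the early granulocyte level as a covariate (4.49%) and 0 with the erythroid level (9.32%), the last added after seeing the data. It was 2 with the level of immediate early genes as a covariate (22.7%) and 2 without knockdown replicate 3 (24.7%), Bcl2 and Pmaip1 in both. It was 0 without scrambled replicates 1 to 4 in turn (5.40%, 3.80%, 4.76% and 13.4% of all tested genes) and 0 without knockdown replicates 1, 2 or 4 (7.08%, 7.24% and 10.1%). In those 7 fits 3 to 5 members had an unadjusted p under 0.05.

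**Figure D1:**
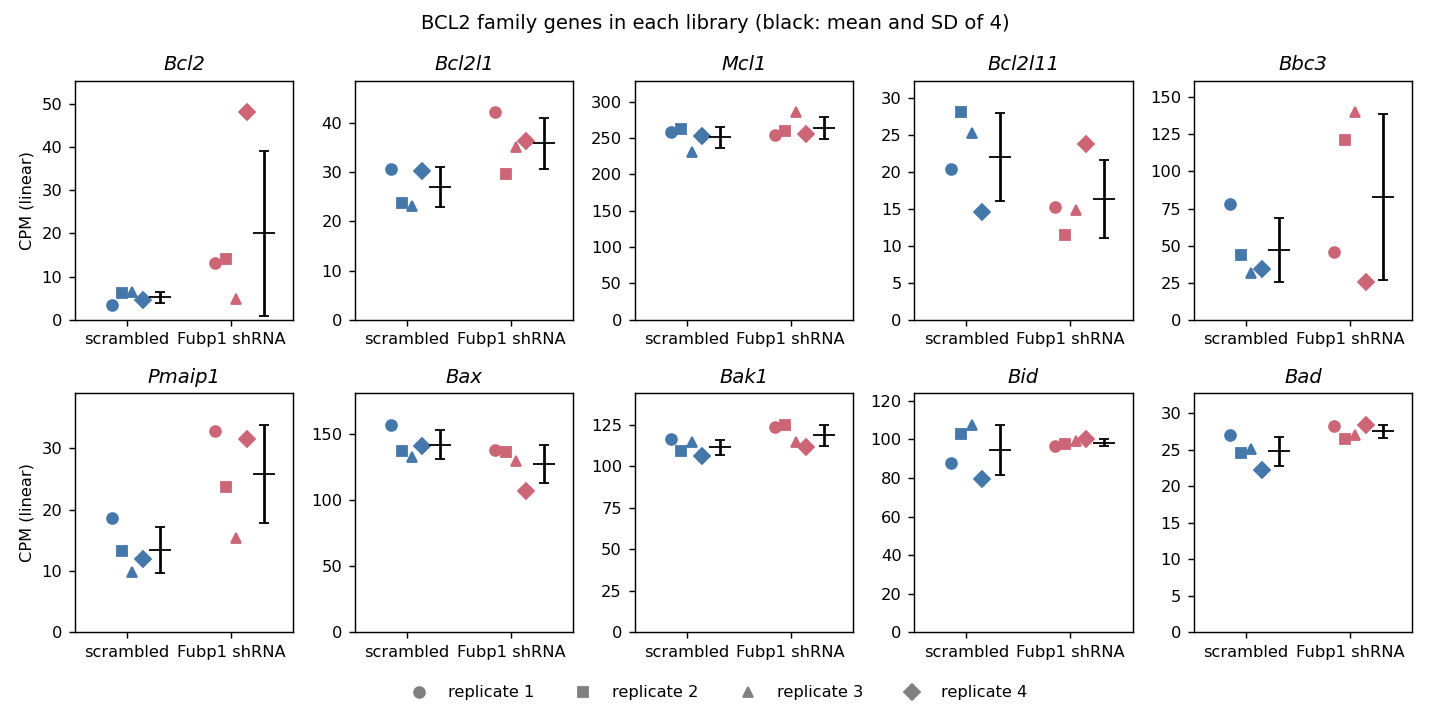
CPM (linear axis from 0) of each of the 10 genes in the 4 scrambled (blue) and 4 knockdown (red) libraries, with marker shapes for replicates and black bars for mean and SD. Bcl2 in knockdown replicate 4 stands at 48.1 CPM above the 7 other libraries, Bbc3 is high in knockdown replicates 2 and 3, and Mcl1 and Bak1 lie close together in both groups, Bid in the knockdown group.

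The survival gene Bcl2 had the largest fitted change and the largest spread of the 10. Bcl2 (ENSMUSG00000057329, chromosome 1 from 106538178 to 106714274, minus strand, in GRCm38) stood at 3.55, 6.12, 6.39 and 4.63 CPM in the scrambled mice. In the knockdown mice it stood at 13.1, 14.1, 4.92 and 48.1 CPM. Knockdown replicates 1, 2 and 4 lay above every scrambled library, and knockdown replicate 3 lay among them. The group means were 5.17 ± 1.33 and 20.1 ± 19.1 CPM (SD, n = 4 per group). The log2 fold change was 1.96 (SE 0.63), with an adjusted p of 0.0711 by edgeR's quasi-likelihood test. The authors' deposited table gives 0.996 (adjusted p = 0.0258), and DESeq2 run here on the same counts gave 1.95 (adjusted p = 0.0212). Without knockdown replicate 4 it was 1.05 (adjusted p = 0.112), and without knockdown replicate 3 it was 2.26, with an adjusted p of 0.0168. The highest library held 13.5 times the level of the lowest.

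The order of the libraries by Bcl2 was close to their order by the early granulocyte genes, in both groups. The level of that list, the mean centred log2 CPM of the 8 genes, was -2.74, -1.13, 0.03 and -1.78 in the scrambled mice and 2.28, 1.61, -1.71 and 3.45 in the knockdown mice. Ranked by it, the libraries stood in the order of their Bcl2 levels except that knockdown replicates 1 and 2 changed places. The first principal component, with 61.1% of the variance, ranked the libraries exactly as this level did. The order was thus not particular to granulocyte genes. The progenitor gene Cd34, for one, was also highest in knockdown replicate 4, at 104.5 CPM, and was lowest in knockdown replicate 3, at 1.46 CPM. With the early granulocyte level as a covariate the fitted log2 fold change of Bcl2 was 0.07 (adjusted p = 0.939). The level was higher in 3 of the 4 knockdown libraries than in any scrambled one, so its part and that of the knockdown cannot be told apart here. More cells of a type and more RNA per cell likewise cannot be told apart in these bulk samples.

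Bcl2l1 had a smaller and steadier fitted change, which did not pass the threshold either. It encodes BCL-XL (ENSMUSG00000007659, chromosome 2 from 152780668 to 152831728, minus strand). The gene stood at 30.6, 23.8, 23.0 and 30.2 CPM in the scrambled mice and at 42.1, 29.7, 35.1 and 36.3 CPM in the knockdown mice. Knockdown replicate 2 lay within the scrambled range and the other 3 knockdown libraries above it. The log2 fold change was 0.41 (SE 0.14), with an adjusted p of 0.0687 by edgeR's quasi-likelihood test. Over the 8 fits without 1 library it ran from 0.33 to 0.50, and the adjusted p was never below 0.0604. By the authors' deposited table it was 0.39 with an adjusted p of 0.0270. The mean level of 11 erythroid genes, of which 3 were called higher and 5 lower, was -0.07, -0.29, -0.44 and 0.12 in the scrambled mice and 0.22, -0.23, 0.55 and 0.14 in the knockdown mice. The 2 lowest libraries by Bcl2l1, scrambled replicates 2 and 3, were also the lowest by that level. With it as a covariate, a fit added after seeing the data, the log2 fold change of Bcl2l1 was 0.24 (adjusted p = 0.271). Megakaryocyte genes, another lineage that depends on BCL-XL, summed to 68.6 to 86.7 CPM in the scrambled and 132 to 214 CPM in the knockdown libraries, with 2 of 6 tested genes called higher and the highest sum in knockdown replicate 1, as for Bcl2l1. The order of the other knockdown libraries differed: replicate 4, next highest by Bcl2l1, had the lowest megakaryocyte sum of the 4. Their part in the Bcl2l1 level was not tested.

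Mcl1, the survival gene with the highest level per length, differed by less than the spread between mice with TMM scaling. Mcl1 (ENSMUSG00000038612, chromosome 3 from 95658788 to 95663176, plus strand) stood at 259, 263, 231 and 253 CPM in the scrambled mice and at 254, 260.0, 286 and 255 CPM in the knockdown mice. Knockdown replicate 3 was the highest and scrambled replicate 3 the lowest of the 8 libraries. The log2 fold change was 0.07 (SE 0.06), with a 95% interval from -0.05 to 0.19 and an adjusted p of 0.467 by edgeR's quasi-likelihood test.

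**Figure D2:**
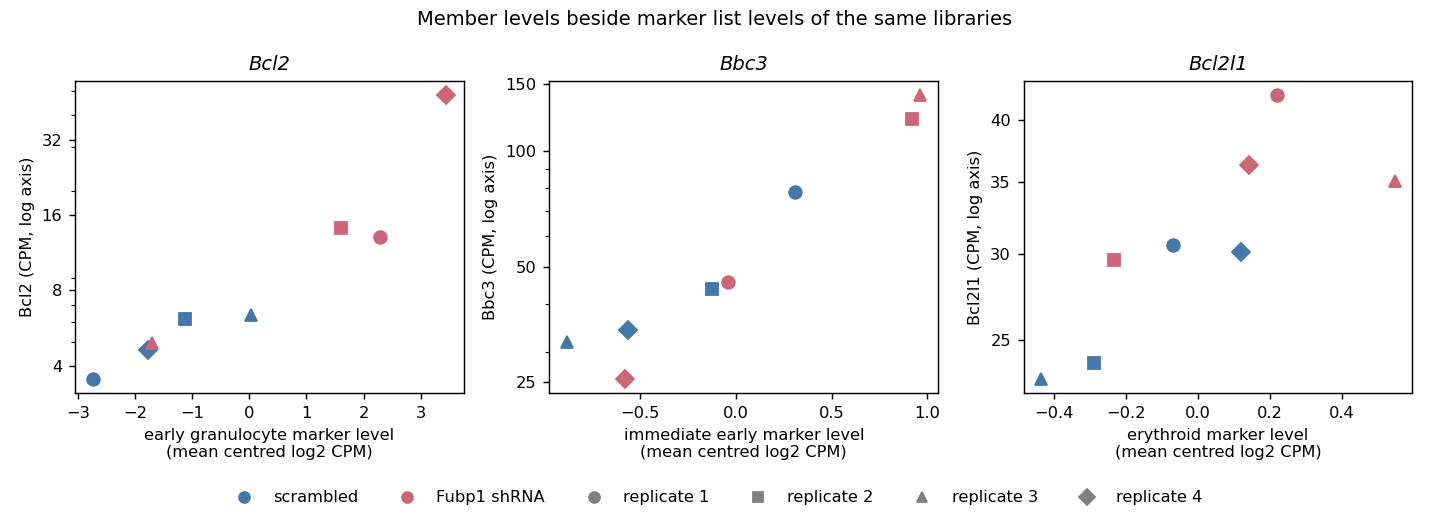
CPM (log axis) of Bcl2, Bbc3 and Bcl2l1 in each library against the level of a marker list in the same library (mean centred log2 CPM), for scrambled (blue) and knockdown (red) replicates. From left to right Bcl2 goes from 3.55 to 48.1 CPM along the early granulocyte level and Bbc3 from 31.8 to 139.9 CPM along the immediate early level, with both groups mixed along it for Bbc3; Bcl2l1 spreads more about the erythroid level.

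Of the effector genes, Bax had a fitted change below 0 and Bak1 above 0, and neither was called. Bax (ENSMUSG00000003873, chromosome 7 from 45461697 to 45466898, minus strand) stood at 157, 137, 133 and 141 CPM in the scrambled mice and at 138, 136, 129 and 107 CPM in the knockdown mice. The 2 lowest libraries were knockdown replicates 3 and 4. Its log2 fold change was -0.16 (SE 0.09, adjusted p = 0.267). Bak1 (ENSMUSG00000057789, chromosome 17 from 27019810 to 27029009, minus strand) stood at 116, 109, 114 and 106 CPM in the scrambled mice and at 123, 125, 115 and 111 CPM in the knockdown mice. Knockdown replicates 1 and 2 were above every scrambled library. The log2 fold change of Bak1 was 0.09 (SE 0.06, adjusted p = 0.327), with a 95% interval from -0.03 to 0.21.

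The ratio of Bak1 to Bax counts within each library did not overlap between the groups. This ratio does not depend on how a library is scaled. It was 0.738, 0.794, 0.863 and 0.752 in the scrambled mice and 0.894, 0.917, 0.887 and 1.04 in the knockdown mice. On the log2 scale the groups differed by 0.25, and by 0.20 to 0.29 with 1 library left out. It was 1 of 5 ratios between members that were looked at, none of them tested, and the other 4 overlapped between the groups; of single genes 20.7% do not overlap. Parts of both genes are shared with other gene models: 192 exon bases of Bax lie in Gm45808 on the same strand, and 437 of Bak1 lie in Ggnbp1 on the opposite strand, which measured 2.34 to 3.55 CPM.

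Ratios that hold Bcl2 varied most between mice. The ratio of Bcl2 to Bcl2l1 counts was 0.116 to 0.278 in the scrambled libraries and 0.311, 0.477, 0.140 and 1.32 in the knockdown mice. In knockdown replicate 4 alone did Bcl2 counts exceed those of Bcl2l1. The ratio of Bax to Bcl2 ran from 20.7 to 44.2 in the scrambled and from 2.22 to 26.3 in the knockdown libraries, with knockdown replicate 3 inside the scrambled range. Mcl1 to Bcl2l1 was 8.37 to 11.05 in the scrambled and 6.03 to 8.77 in the knockdown libraries, and Bcl2l11 to Mcl1 was 0.0575 to 0.109 and 0.0440 to 0.0929.

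**Figure D3:**
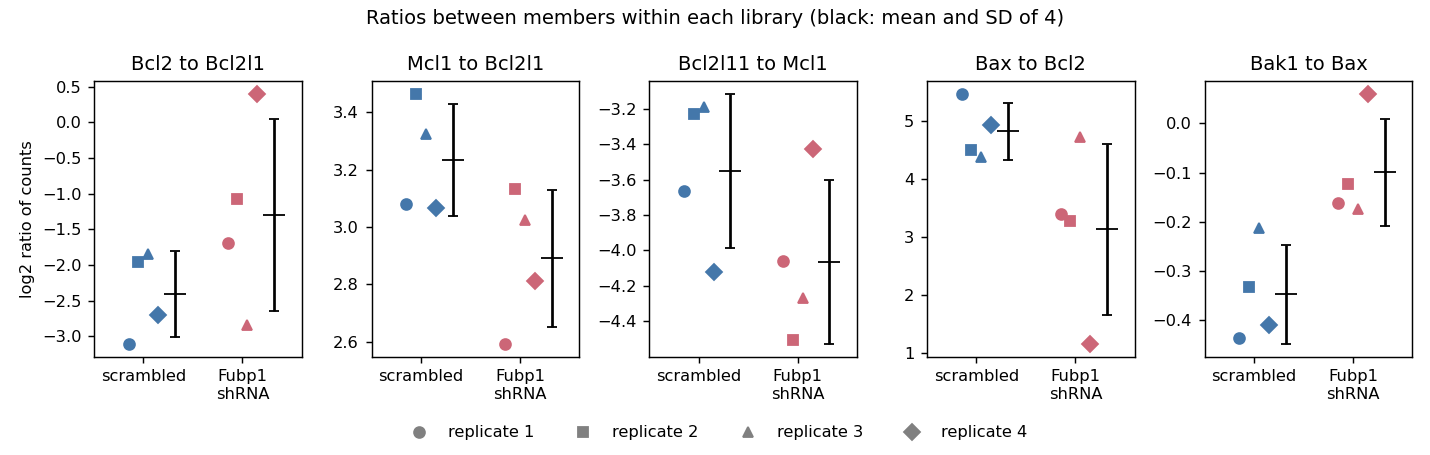
Log2 ratio of the counts of 2 members within each library, for 5 pairs, in the scrambled (blue) and knockdown (red) libraries, with black bars for mean and SD; each panel has its own axis, which does not start at 0. The groups are apart in the Bak1 to Bax panel and overlap in the 4 others, and knockdown replicate 4 stands apart in the panels that hold Bcl2.

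Pmaip1, the gene of the BH3-only protein NOXA, was the member that passed the test. Pmaip1 (ENSMUSG00000024521, chromosome 18 from 66458533 to 66465565, plus strand) stood at 18.6, 13.3, 9.76 and 11.9 CPM in the scrambled mice. In the knockdown mice it stood at 32.8, 23.8, 15.3 and 31.5 CPM. Knockdown replicates 1, 2 and 4 lay above every scrambled library. Knockdown replicate 3, at 15.3 CPM, lay below scrambled replicate 1. The means were 13.4 ± 3.76 and 25.8 ± 8.06 CPM (SD, n = 4 per group). The fitted log2 change was 0.95 (SE 0.27), and edgeR's quasi-likelihood test gave an adjusted p of 0.0498. The call was lost when any 1 library other than knockdown replicate 3 was left out, with an adjusted p of 0.0531 to 0.122, and without knockdown replicate 3 the adjusted p was 0.00945. The fitted change stayed between 0.81 and 1.13 in those 8 fits. It was 0.60 (adjusted p = 0.412) with the early granulocyte level as a covariate.

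Of the genes outside the lists, 3 varied most like Pmaip1 between mice of the same group: Aamdc, A330069E16Rik and Gm10767. The Pearson correlation of log2 CPM deviations from the group means was 0.97, 0.97 and 0.96 over the 8 libraries, which were sorted by the same markers, and is given as a description. These were the highest values picked from all tested genes outside the lists. Counts per library were low for A330069E16Rik, at 9 to 28, and for Gm10767, at 28 to 63. None of the 3 was called between the groups, with adjusted p of 0.437, 0.956 and 0.628.

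Bbc3, the gene of PUMA, varied strongly inside each group. Bbc3 (ENSMUSG00000002083, chromosome 7 from 16308393 to 16318205, plus strand) stood at 78.4, 43.9, 31.8 and 34.3 CPM in the scrambled mice and at 45.5, 121, 139.9 and 25.5 CPM in the knockdown mice. Knockdown replicates 2 and 3 were the highest of the 8 libraries and knockdown replicate 4 the lowest. The log2 fold change was 0.82 (SE 0.55, adjusted p = 0.341). These libraries were ordered much as by the immediate early genes, a list of 8 that respond to handling and signalling. Their level was 0.31, -0.12, -0.88 and -0.56 in the scrambled mice and -0.04, 0.92, 0.96 and -0.58 in the knockdown mice. Ranked by it, the libraries stood in the order of Bbc3 except for the last 2, scrambled replicate 3 and knockdown replicate 4. None of the 8 genes was called by edgeR, 1 had an unadjusted p under 0.05, DESeq2 and limma-voom called 0, and their summed level was 1984 to 4190 CPM in the scrambled and 2288 to 6330 CPM in the knockdown libraries. With this level as a covariate the log2 fold change of Bbc3 was -0.29 (adjusted p = 0.208), and with the early granulocyte level it was 1.88 (adjusted p = 0.0767). The part of either in the Bbc3 level was not tested beyond these fits.

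Bcl2l11, which encodes BIM, was the BH3-only gene with a fitted change below 0, which did not pass the test. Bcl2l11 (ENSMUSG00000027381, chromosome 2 from 128126038 to 128162547, plus strand) stood at 20.4, 28.1, 25.2 and 14.5 CPM in the scrambled mice and at 15.2, 11.4, 14.9 and 23.7 CPM in the knockdown mice. Scrambled replicate 4 and knockdown replicate 4 each lay on the other group's side. The log2 fold change was -0.44 (SE 0.26, adjusted p = 0.280), with a 95% interval from -0.95 to 0.08. It was -0.68 without knockdown replicate 4 (adjusted p = 0.0948).

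Bid and Bad differed little between the groups. Bid (ENSMUSG00000004446, chromosome 6 from 120891930 to 120916853, minus strand), whose protein caspase-8 cleaves, measured 79.5 to 108 CPM in the scrambled and 96.4 to 100.5 CPM in the knockdown libraries. The 4 knockdown libraries lay close together inside the scrambled range, and its fitted log2 change was 0.06 (SE 0.09, adjusted p = 0.719). Bad (ENSMUSG00000024959, chromosome 19 from 6941861 to 6951899, plus strand), whose protein is held inactive by phosphorylation, stood at 27.1, 24.6, 25.2 and 22.3 CPM in the scrambled mice and at 28.3, 26.5, 27.1 and 28.4 CPM in the knockdown mice. Only scrambled replicate 1 reached the knockdown range, and the log2 fold change was 0.15 (SE 0.08, adjusted p = 0.214). Bid shares 628 exon bases with Bcl2l13 on the opposite strand and Bad 524 with Gpr137, so their counts are uncertain where the counting did not use strand.

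**Figure D4:**
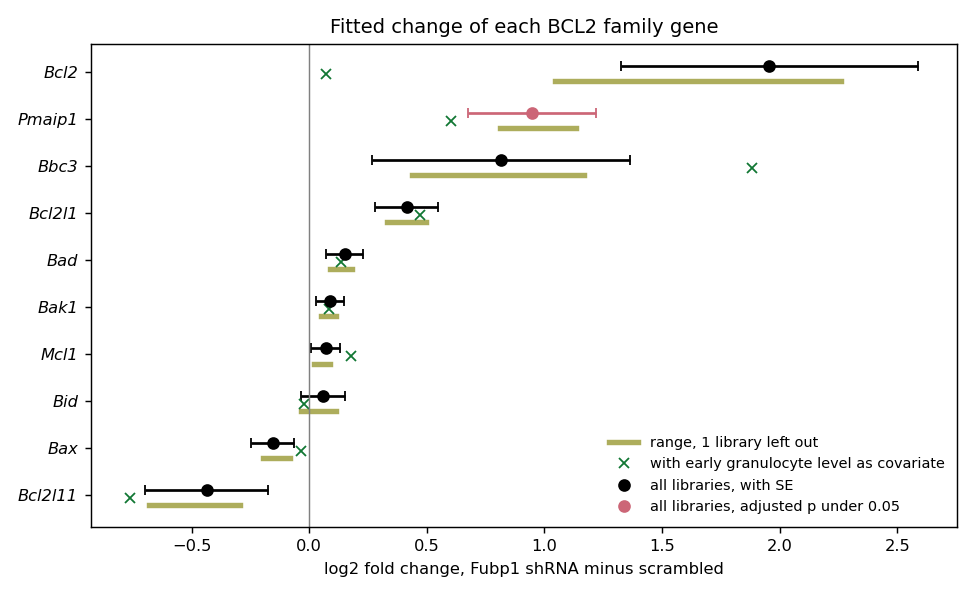
Fitted log2 fold change (knockdown minus scrambled) of each member with its SE (points; red where the adjusted p was under 0.05), the range over the 8 fits that left out 1 library (bars) and the value with the early granulocyte level as a covariate (crosses). Pmaip1 is the red point; the cross of Bcl2 lies at 0.07 against 1.96 without the covariate, and that of Bbc3 at 1.88 against 0.82.

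Per kilobase of annotated exon, the levels in the scrambled libraries fell in the order Bax, Mcl1, Bak1, Bid, Bbc3, Bad, Bcl2l1, Pmaip1, Bcl2l11 and Bcl2. Bax stood at 90.1 ± 6.78 CPM per kilobase, Mcl1 at 73.5 ± 4.19, Bcl2l1 at 5.86 ± 0.882 and Bcl2 at 0.565 ± 0.145 (SD, n = 4). Bid and Bbc3 overlapped over the 4 libraries, as did Bcl2l1 and Pmaip1; the other neighbours in the order did not. In the knockdown libraries Bax, at 80.9 ± 9.04, overlapped Mcl1, at 77.2 ± 4.34. There Bcl2, at 2.19 ± 2.09, overlapped Bcl2l11, at 2.03 ± 0.651. Exon length was the union over annotated transcripts, so a gene whose cells use a short form is set too low.

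Of 16 other family genes 10 could be tested; 1 was called lower and 0 higher, against 15.3% of all tested genes called. Several low genes varied widely between libraries without a call, such as the BH3-only gene Bmf at 0.0806 to 1.57 CPM. Bnip3 had a fitted log2 change of 0.83 (SE 0.39, adjusted p = 0.169) and Bok of 2.20 (SE 0.84, adjusted p = 0.106). The one that fell was Bcl2l13, which encodes a mitochondrial BCL2-like protein linked to mitophagy. It stood at 382, 375, 354 and 330.1 CPM in the scrambled mice and at 274, 281, 341 and 280.0 CPM in the knockdown mice. Knockdown replicate 3 lay within the scrambled range and the other 3 knockdown libraries below it. Its log2 fold change was -0.29 (SE 0.08, adjusted p = 0.0451), and the call held in 2 of 8 leave-one-out fits, those without scrambled replicate 4 and without knockdown replicate 3. The survival genes Bcl2a1a, Bcl2a1b, Bcl2a1c and Bcl2a1d, near-identical copies between which reads may have been split or dropped, reached at most 0.104 CPM in any library. Bcl2l10 and the BH3-only gene Hrk were at 0 in every library.

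Among 11 genes that act at or downstream of the mitochondrial step 1 fell and 0 rose, which is 9.09% called against 15.3% of all tested genes. It was Vdac2, a channel of the outer membrane that binds BAK1, at 383 ± 13.5 CPM in the scrambled and 320.2 ± 23.2 CPM in the knockdown libraries (SD, n = 4 per group). Its fitted log2 change was -0.26 (SE 0.06, adjusted p = 0.0285). Its lowest scrambled library, at 373 CPM, stood above its highest knockdown library, at 343 CPM. Apaf1, Casp9, Diablo, Xiap and the other genes of that list were not called.

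Of 8 genes for transcription factors that act on the family, 1 fell and 0 rose, which is 12.5% against 15.3%. It was Stat5a, at 130.2, 140, 152 and 111 CPM in the scrambled mice and 106, 102, 94.0 and 80.4 CPM in the knockdown mice. The groups did not overlap, and the log2 fold change was -0.48 (SE 0.11, adjusted p = 0.0278). The p53 gene Trp53 measured 358 ± 4.82 and 370 ± 37.3 CPM and Foxo3, a known activator of Bcl2l11 and Bbc3, 212 ± 17.7 and 220.0 ± 29.0 CPM (SD, n = 4 per group); neither was called.

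Of 13 genes for regulators of the member proteins, 2 rose and 1 fell, which is 23.1% against 15.3%. The kinase gene Pim1, whose product is known to phosphorylate BAD, was at 84.9 to 157 CPM in the scrambled and 178 to 297 CPM in the knockdown libraries, with a fitted log2 change of 1.01 (SE 0.23, adjusted p = 0.0274). Ywhaz, a 14-3-3 gene of the kind that holds phosphorylated BAD in the cytosol, went from 115 ± 9.44 to 152 ± 13.3 CPM, with a fitted log2 change of 0.41 (SE 0.08, adjusted p = 0.0177). Dynll2, a dynein light chain known to bind BMF, went from 116 ± 10.04 to 93.3 ± 2.48 CPM, with a fitted log2 change of -0.31 (SE 0.07, adjusted p = 0.0225). For each of these 3 the groups did not overlap. In all, 6 of the 42 tested genes around the members were called, which is 14.3%, against 15.3% of all tested genes. With 1 library left out, Ywhaz lost its call only without scrambled replicate 3 (adjusted p = 0.0593), Pim1 without scrambled replicates 2 or 3 or knockdown replicate 2 (up to 0.0690) and Dynll2 without scrambled replicates 1 or 2 or knockdown replicate 1 (up to 0.0617). For Vdac2 the call went with scrambled replicate 1, 2 or 3 or knockdown replicate 1 removed (up to 0.0817). For Stat5a it went with any of scrambled replicates 1 to 3, or either of knockdown replicates 2 and 4, removed (up to 0.0885). With the early granulocyte level as a covariate 2 of the 42 were called, Pim1 and the stress factor gene Atf4, both higher.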

How the data were processed

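The authors deposited whole-number read counts per gene with no normalization, 1 column per library, beside their own DESeq2 results. Per the submitters' processing notes CASAVA 1.8 and DESeq2 1.18.1 were used, and per the series' design text R 3.4.3. Not given in the sources used here were aligner, counting program, strand setting and build. The kit keeps strand, and 2 versions of its ribosomal RNA depletion were used, which the labels do not tie to libraries. The log2 fold changes and p-values of the authors' deposited table were copied only where named; their deposited mean normalized signal and Wald score were not used.

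The number that ends each count column's name also ends 1 sample's description, and this set its sample. Of these columns 0 were left unmatched. Each library is 1 mouse. After filterByExpr and TMM scaling, edgeR 4.0.16 (R 4.3.3) ran a robust quasi-likelihood F test on the counts, two-sided, group as the only term, adjusted by Benjamini-Hochberg over 13462 genes, with a threshold of 0.05. SE is the log2 fold change divided by the root of F, and 95% intervals use 1.96 SE. The F test allows for the small number of libraries and this multiplier does not, so the intervals are somewhat too narrow. The test was checked on simulated counts. Exact permutation used mean log2 CPM with a prior count of 2. Marker and pathway lists were written from general knowledge. The members and lists were chosen with earlier results of these data known. The text names the 10 members, each other pathway gene past the threshold, and the 3 genes outside the lists closest to the called member; a few other genes were named after their values were seen. Alternatives were DESeq2 1.42.0, limma-voom (limma 3.58.1), other scalings and filters, a replicate block, marker levels as covariates, and each library left out. Gene coordinates and exon lengths came from the GENCODE annotation of GRCm38, and promoters from RefSeq on GRCm38.p6. Counts of the members ran from 103 to 11727 per library, so counting error is below the spread between mice for most of them but about as large for Bad and Bid in the knockdown group. Results for some genes of the lists are not reported here.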

Additional observations from a re-analysis of the deposited data

Results flagged for a closer look

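Bcl2l13 in knockdown replicate 3 measured 341 CPM, far above the other 3 knockdown libraries, which lay between 274 and 281 CPM; the gap was 0.907 of the group's range, over Dixon's 95% critical value for 4 libraries. It was the 1 such case among 32 groups of 4 looked at, and chance alone gives about 1 in 20.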

How the results depend on the processing

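The fitted change of the 10 members kept its direction and its side of the threshold in 162 of 180 values over 18 alternatives; 11 lost the call of Pmaip1, 4 gained a call for Bcl2 or Bcl2l1 and 3 turned direction. Those 3 were Bbc3 with the immediate early level as a covariate (-0.29), and Bid with the early granulocyte level (-0.021) or without scrambled replicate 4 (-0.035, the low end of a range to 0.12 with 1 library left out). The number of members called, 1 as reported, was 3 with DESeq2, 2 with the immediate early level, and 0 with limma-voom (2 at an unadjusted p under 0.05), with no low count filter (3, by edgeR), with the early granulocyte level (4) and with the erythroid level (2), the last a fit added after seeing the data. It was 0 to 2 with 1 library left out; in the 7 fits where edgeR called 0, 3 to 5 members had an unadjusted p under 0.05. Pmaip1 also lost its call with limma-voom (adjusted p = 0.0677), with no low count filter (0.0985) and with the erythroid level (0.104), and its adjusted p ran from 0.00337 to 0.412 over the alternatives. Of the other pathway genes, 6 as reported, 2 were called with the early granulocyte level, 2 with the erythroid level, and 1 to 8 with 1 library left out.

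Over all genes 2062 were called; DESeq2 called 3588, the early granulocyte level left 604, the erythroid level 1255, and leaving out 1 library 526 to 3425. With CPM of the total count in place of TMM scaling, Bcl2l1 and Mcl1 did not overlap between the groups and the unadjusted exact permutation p was 0.0286, the smallest possible, for each, against 0.0857 and 0.400. No label says that the replicate numbers pair the libraries. Same-numbered libraries had correlations of -0.42, 0.02, -0.56 and -0.22 between their deviations from the group means, and none correlated best with its own number. Whether same-numbered libraries shared a batch was not tested. With the replicate block 400 genes were called, 1 of the members (Pmaip1, adjusted p = 0.0414) and 1 of the other pathway genes. Without knockdown replicate 4 the log2 ratio of Bcl2 to Bcl2l1 differed by 0.54 between the groups, against 1.11 with it.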

Other observations

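A few genes around the family are named here after their values were seen. Cytochrome c, the protein released from mitochondria, is encoded by Cycs, which measured 1.72 to 2.59 CPM in the scrambled and 2.73 to 3.79 CPM in the knockdown libraries, without overlap and without passing the threshold (log2 fold change 0.50, SE 0.21, adjusted p = 0.127 by edgeR's quasi-likelihood test). In all, 8 of the 42 tested genes around the members did not overlap between the groups, against 20.7% of all tested genes.

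The stress gene Ddit3, which encodes CHOP, an activator of Bbc3 and Bcl2l11 transcription, was high in the same libraries as Bbc3. It stood at 96.7, 78.9, 55.4 and 66.6 CPM in the scrambled mice and at 62.1, 138, 160.0 and 51.7 CPM in the knockdown mice. As for Bbc3, knockdown replicates 2 and 3 and scrambled replicate 1 were the 3 highest, and the gene was not called between the groups (adjusted p = 0.431). Bok, an effector-like member of the family, was near the detection limit, at 0 to 0.339 CPM in the scrambled and 0.127 to 1.76 CPM in the knockdown libraries, and was highest in knockdown replicate 4, as Bcl2 was.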
